A study of Mus musculus with 15 samples.

Results

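The 3 wild-type embryos of a series of 15 single mouse embryos at embryonic day 7.5 were described on their own, by their columns of DESeq2 normalized counts. The labels give their genotype as wild-type, their strain as C57Bl6/CD-1 mix and their tissue as whole embryo, so that embryonic and extraembryonic parts were sequenced together. The other 12 embryos were of the genotypes Apela KO NEO-IN and Apela KO NEO-OUT and were not compared with them. Embryos were matched in stage by their morphology, and each library came from 1 embryo. The labels name no treatment, litter, sex or batch. With 3 embryos of 1 group there was no contrast to test, and values are given with their spread between embryos.

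At this stage gastrulation is under way in the mouse. Cells of the epiblast, the layer from which the whole fetus derives, pass through the primitive streak and become mesoderm and definitive endoderm. Around them lie the visceral endoderm, an absorptive layer that secretes serum proteins, the parietal endoderm, which lays down a thick basement membrane, and the extraembryonic ectoderm, from which the chorion and trophoblast form. The first red cells appear in the blood islands of the yolk sac.

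The libraries held 55050556, 58162139 and 61038109 reads for embryos 1, 2 and 3, and a read was found for 20842, 20926 and 21059 genes. Over the table of 45232 genes, 18773 (41.5%) had a read in all 3 embryos and 21882 had none in any. Xist, the RNA that coats the inactive X chromosome, had normalized counts of 5566, 5939.6 and 7588. The Y-linked genes Kdm5d and Eif2s3y had no read in any of the 3 libraries, and Ddx3y and Uty had at most 2 reads in any library. A normalized count is the number of reads of a gene over the size factor of its library. It grows with the length of the transcript, so levels of different genes are compared on a length-scaled level. This is the normalized count per kilobase of exon, over all annotated exons of the gene, rescaled to a sum of 1000000 per embryo.

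Abundance fell into a broad upper group and a long lower tail. A mean normalized count of at least 1000 was reached by 7911 genes (17.5% of the table), of at least 100 by 12353 genes (27.3%) and of at least 10 by 16436 genes. The class from 1000 to 10000 held 6696 genes, more than the classes from 100 to 1000 (4442 genes) and from 10 to 100 (4083 genes). In that class 98.9% of genes were protein-coding, against 63.8% in the class from 10 to 100 and 34.5% among the 6914 genes above 0 and under 10. The 1187 genes from 10000 to 100000 held 45.5% of all normalized counts, and the 28 genes at 100000 and over held 9.15%.

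No small set of genes dominated the libraries. The 10 most abundant genes held 5.02% ± 0.0729 (SD, n = 3) of the normalized counts, the first 100 held 17.9% ± 0.191 (SD, n = 3) and the first 1000 held 50.7% ± 0.236 (SD, n = 3). It took 967 genes to reach 50% of the counts, and 585 genes on the length-scaled level. Protein-coding genes made up 98.2% ± 0.00447 (SD, n = 3) of the counts, long intergenic RNAs 0.782% ± 0.0157 (SD, n = 3) and processed pseudogenes 0.569% ± 0.0204 (SD, n = 3).

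**Figure D1:**
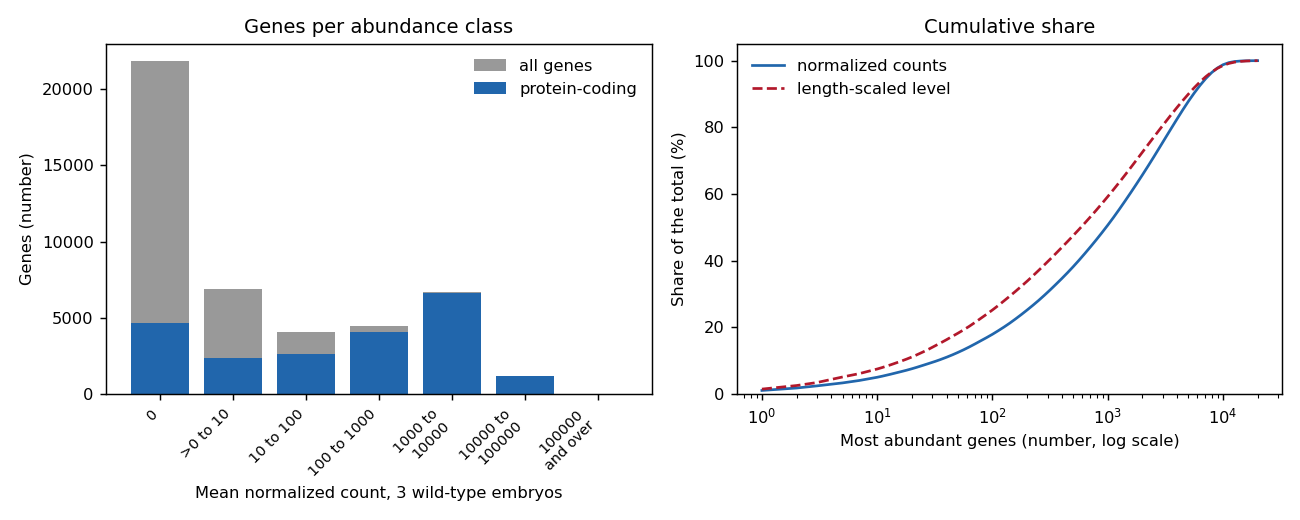
Left, number of genes in each class of mean normalized count over the 3 wild-type embryos, with protein-coding genes in blue over all genes in grey. Right, share of all normalized counts (solid) and of the length-scaled level (dashed) held by the most abundant genes, against their number on a log scale; the first 1000 genes held 50.7% of the counts.

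Among the most abundant RNAs were those of protein synthesis, protein folding and glucose use. Of the 30 genes with the highest mean normalized count, 7 belonged to the list of translation factors and growth-linked abundant genes. As its name says, that list was made of genes known to be abundant, so its 7 members are a description only. A further 5 belonged to glucose uptake and glycolysis, 3 to chaperones, 2 to the cytoskeleton and 2 to visceral endoderm. Eef1a1, the elongation factor that brings aminoacyl-tRNA to the ribosome (chr9:78478449-78489151 in GRCm38), ranked first with normalized counts of 579117, 647923 and 590998 in embryos 1, 2 and 3. Embryo 2 was the highest, 1.12 times the lowest. Hsp90ab1, a constitutive chaperone, followed at 418227, 411426 and 430420. The ribosomal protein gene Rpl4 stood at 158199, 164281 and 153624 and Npm1, a nucleolar protein of ribosome assembly, at 184111, 182850 and 191836.

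Glucose handling was prominent among the top genes. Slc2a3, a glucose transporter gene, ranked 5 at 241321, 239052 and 229239, and Slc2a1, the transporter found in most growing cells, stood at 90083, 82360.4 and 83993. Pkm (pyruvate kinase) was at 273171, 288761 and 256929 and Ldha (lactate dehydrogenase A) at 199928, 198761 and 173967. On the length-scaled level Ldha and Pkm were at 3487 ± 249.8 (SD, n = 3) and 3300.1 ± 175 (SD, n = 3), above Slc2a3 at 1974 ± 43.6 (SD, n = 3). Hk2, a hexokinase, was at 113 ± 8.91 (SD, n = 3) and Hk1 at 18.0 ± 0.743 (SD, n = 3). The 14 genes of the list each exceeded a mean normalized count of 1000 and together held 2.22% ± 0.111 (SD, n = 3) of the counts.

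An imprinted pair of neighbours was among the 30 most abundant genes. H19, a maternally expressed long noncoding RNA (chr7:142575529-142578143), ranked 3 at 353267, 356178 and 386330, and the paternally expressed Igf2, a growth factor gene, ranked 29 at 95631, 89669 and 105453. Both were highest in embryo 3. Peg10, a paternally expressed gene of retrotransposon origin that the placenta needs, was at 86439.5, 88225 and 95707 and was named after its values were seen. The 27 other genes at 100000 and over were protein-coding.

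The 15 genes of DNA replication and mitosis had a median length-scaled level of 336 ± 12.6 (SD, n = 3) and none spread by 1.5-fold. Such a spread was rare at these counts, at 1.05% of all genes from 1000 to 10000 and 0.758% from 10000 to 100000. Its absence therefore does not single these genes out. The helicase subunit genes Mcm5, Mcm3 and Mcm4 were at 482 ± 17.6 (SD, n = 3), 461 ± 16.3 (SD, n = 3) and 413 ± 2.93 (SD, n = 3), close to Rrm2, a ribonucleotide reductase subunit, at 456 ± 18.3 (SD, n = 3). The mitotic kinase gene Cdk1 and cyclin gene Ccnb1 were at 170.2 ± 15.9 (SD, n = 3) and 207 ± 19.7 (SD, n = 3). Embryo 3 was the lowest for both. The lowest levels of the list were those of Tyms, Rrm1 and Mki67, at 58.5 ± 3.46 (SD, n = 3), 106 ± 7.93 (SD, n = 3) and 109.7 ± 2.97 (SD, n = 3). Cytoskeletal genes stood higher, at a median of 907 ± 10.7 (SD, n = 3), led by Actb (beta-actin) at 3945 ± 82.9 (SD, n = 3) and Tubb5, a beta-tubulin, at 3109.6 ± 47.6 (SD, n = 3). Krt18 and Krt8, keratins of simple epithelia, were at 907 ± 10.7 (SD, n = 3) and 662 ± 26.5 (SD, n = 3), above Vim, an intermediate filament of mesenchyme, at 167 ± 10.8 (SD, n = 3).

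Constitutive chaperone genes were abundant, and the inducible Hspa1a and Hspa1b were not. The 11 constitutive genes had a median level of 1252 ± 49.6 (SD, n = 3), with Calr, a calcium-binding chaperone of the endoplasmic reticulum, at 1923 ± 99.9 (SD, n = 3) and the mitochondrial chaperonin gene Hspd1 at 1654 ± 24.2 (SD, n = 3). The heat-inducible Hspa1a and Hspa1b had normalized counts of 22.9, 25.7 and 11.2 and of 91.4, 69.3 and 55.9, and as near-identical copies they are uncertain. Immediate early genes, which come on within minutes of dissection or other stimuli, were low in part. Fos had 99.8, 111 and 112 and Fosb 22.9, 9.90 and 14.9, whereas Ier2 had 2269.6, 2212 and 2185 and Dnajb1, a co-chaperone, 4209.7, 4355 and 3856. Egr1 was the lowest in embryo 1, at 97.7, 184 and 167. Of the 10 genes in this list 7 passed a mean of 100.

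Scaling by length changed the order below the first gene. Eef1a1 stayed first at 14699 ± 849 (SD, n = 3), followed by the short ribosomal protein gene Rplp1, which ranked 37 by count and reached 10682 ± 1387 (SD, n = 3), and H19 at 8981 ± 500.1 (SD, n = 3). Hsp90ab1 came next at 8471 ± 241 (SD, n = 3), and the mitochondrially encoded mt-Nd1 at 8158 ± 1799 (SD, n = 3). The long transcripts Apob and Cubn moved the other way, from ranks 10 and 13 by count to 172 and 205 by level. The 84 cytoplasmic ribosomal protein genes held 5.21% ± 0.177 (SD, n = 3) of the counts, and 80 of them passed a mean of 1000. Of the 13 mitochondrially encoded protein genes, 6 passed 1000, whereas mt-Co2 (2.08, 0.990 and 8.38) and mt-Atp6 (16.6, 3.96 and 10.2) were near 0 and mt-Nd4l had no read. Reads that align to several places may not have been counted, so levels of genes with near-identical copies, ribosomal protein genes included, are uncertain.

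Among 20 lists of tissue markers and absent tissues, visceral endoderm stood first. All 16 of its genes passed a mean of 100 and 15 passed 1000, against 17.5% of all genes. The median length-scaled level of its members was 504 ± 43.9 (SD, n = 3), and together they held 1.12% ± 0.0333 (SD, n = 3) of the counts. Apob, which packs lipid into lipoproteins (chr12:7977648-8016835), had normalized counts of 171612, 173223 and 181753. Cubn, an endocytic receptor for vitamin B12 carriers and lipoproteins, had 161235, 168399 and 160919. On the length-scaled level the highest member was Apoa1, the main protein of high-density lipoprotein, at 2256 ± 252 (SD, n = 3). Ttr, a carrier of thyroid hormone, and Rbp4, the plasma carrier of retinol, were close to each other at 1500.0 ± 155 (SD, n = 3) and 1492 ± 64.4 (SD, n = 3). The transcription factor gene Hnf4a, needed for this layer to differentiate, was at 10250.5, 10485 and 10651. The classical yolk sac marker Afp was at 13601, 18329 and 18503, lowest in embryo 1. Trf, the transferrin gene, was the lowest member, at 346, 328 and 266. In bulk samples, fewer cells of a type and less RNA per cell cannot be told apart, here and for every list that follows.

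Parietal endoderm and basement membrane genes came second, with a median level of 73.1 ± 2.11 (SD, n = 3). Sparc, a matrix protein gene, was at 390.5 ± 13.3 (SD, n = 3) and the collagen IV chains Col4a1 and Col4a2 at 321 ± 16.2 (SD, n = 3) and 180.5 ± 11.8 (SD, n = 3). Pth1r, the receptor gene for parathyroid hormone-related protein, which marks parietal endoderm in the mouse, had normalized counts of 5206, 4269.6 and 4091. Thbd, the thrombomodulin gene expressed there, was low at 112, 89.1 and 76.4. The laminin and collagen genes of the list are also expressed by other tissues. Their sum therefore does not measure parietal endoderm alone.

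Definitive endoderm genes were lower, with a median level of 20.5 ± 0.871 (SD, n = 3). Trh, which encodes a releasing hormone and marks early endoderm and notochord, led at 209.8 ± 6.77 (SD, n = 3). Cer1, a secreted inhibitor of Nodal, BMP and Wnt made by anterior endoderm, was at 98.8 ± 10.8 (SD, n = 3). Foxa2 and Sox17, which encode transcription factors of endoderm, had normalized counts of 1512, 1463 and 1441 and of 2293, 2550.1 and 2234. Embryo 3 was the lowest for 5 of the 6 members with a mean of at least 100, against 34.3% of all such genes, and the embryos differed by less than 1.5-fold in each of them. Foxa2, Sox17, Cer1 and Hhex are also made by visceral endoderm. Pyy, a gut hormone gene of later endoderm, had 2.08, 0 and 9.32.

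Epiblast genes ranked 3 among the lists, with a median level of 42.8 ± 2.57 (SD, n = 3). Dnmt3b, the DNA methyltransferase that sets methylation in the epiblast (chr2:153649450-153687730), had normalized counts of 49134, 54339 and 48009 and a level of 598 ± 37.4 (SD, n = 3). Pou5f1, the pluripotency factor Oct4, had 12840.2, 14279 and 12154 and a level of 352 ± 27.5 (SD, n = 3). Embryo 2 was the highest for both. Epcam and Utf1 followed at levels of 224 ± 5.51 (SD, n = 3) and 122 ± 5.89 (SD, n = 3). Nanog, which falls as the epiblast leaves pluripotency, was still at 1198, 1337 and 1129.9. Fgf5, a marker of the early epiblast, was far lower at 287, 283 and 219.8. Tdgf1, the Nodal co-receptor gene Cripto, had 39.5, 97.0 and 24.2, whereas its paralogue Cfc1 had 985, 793 and 800.2. The genome holds pseudogene copies of Tdgf1, of which Tdgf1-ps1 had 9.35, 6.93 and 1.86, and reads shared with them may not have been counted. Cfc1 and the pseudogene were named after their values were seen.

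Genes of the anterior neural plate were at a median level of 3.68 ± 0.416 (SD, n = 3). Zic2, a zinc finger factor, was the highest at 64.7 ± 5.28 (SD, n = 3). Hesx1 and Six3, factors of the forebrain primordium, had normalized counts of 324, 345 and 363 and of 482, 435 and 469. Genes that come on later in the neural plate and eye field were near the bottom, with Pax6 at 64.4, 55.4 and 42.8, Rax at 22.9, 21.8 and 27.9 and Fezf1 at 1.04, 0 and 3.73. The list of primordial germ cell genes had a median level of 7.31 ± 1.26 (SD, n = 3), and 4 of its 7 members passed a mean of 100. Kit, Prdm1, Ifitm3 and Dnd1, of which Kit, Prdm1 and Ifitm3 are also made by other tissues of the embryo, had mean normalized counts of 2139, 818, 512 and 311. Dppa3 had 22.9, 24.7 and 1.86, Prdm14 13.5, 18.8 and 29.8 and Nanos3 6.24, 0 and 6.52, so that each of these lay under a mean of 100.

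Primitive streak genes were expressed in every embryo, with a median level of 27.2 ± 0.734 (SD, n = 3). T (Brachyury), which mesoderm formation requires, led at normalized counts of 8449, 9772 and 8804 and a level of 235 ± 17.3 (SD, n = 3). Mixl1 had 1653, 1615 and 1827 and Eomes 2529, 2603 and 3024. Mesp1, the factor of the earliest cardiac and cranial mesoderm, was nearly equal in the embryos at 553, 547 and 559. Gsc, which marks the anterior end of the early streak, was the lowest at 19.7, 19.8 and 18.6. Nodal, the ligand that starts the streak, was also low at 112, 123 and 96.9. Cdx1, a caudal homeobox gene, was the member with the widest spread, at 5471, 3158 and 5079, with embryo 2 the lowest.

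Paraxial mesoderm genes had a median level of 24.2 ± 1.64 (SD, n = 3) and cardiac mesoderm genes one of 5.94 ± 0.727 (SD, n = 3). In the paraxial list, Aldh1a2, the enzyme that makes retinoic acid, led at 204 ± 22.3 (SD, n = 3), with Msgn1 and Tbx6, factors of presomitic mesoderm, at 131 ± 32.8 (SD, n = 3) and 74.0 ± 1.81 (SD, n = 3). In the cardiac list, Gata4 led at 124 ± 3.58 (SD, n = 3), a factor that visceral endoderm also makes. Myl7, an atrial myosin light chain, followed at a level of 96.6 ± 10.2 (SD, n = 3) and normalized counts of 1051, 934 and 845. The other sarcomere genes had lower levels, with Actc1 at 11.9 ± 2.37 (SD, n = 3) and Myl4 at 1.63 ± 0.251 (SD, n = 3), and Tnnt2 had normalized counts of 157, 222 and 198. Isl1, Nkx2-5 and Tbx5, factors of heart progenitors, were at 8.49 ± 1.05 (SD, n = 3), 3.39 ± 0.496 (SD, n = 3) and 1.79 ± 0.242 (SD, n = 3). Sarcomere genes and regulators of the heart overlapped in level. The level divides by all annotated exon bases of a gene, 590 for Myl7 but 4637 for Myl4 and 7752 for Tnnt2. The order of these genes by level is therefore uncertain. With the longest transcript as the length, the cardiac list moved from rank 14 to 12. Node and notochord genes were at a median level of 6.68 ± 0.521 (SD, n = 3), led by Foxj1, the regulator of motile cilia, at 35.2 ± 0.875 (SD, n = 3). Noto, which is confined to node and notochord in the mouse, had 469, 416 and 399.6.

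Extraembryonic mesoderm genes had a median level of 34.0 ± 2.76 (SD, n = 3). Hand1, a factor that trophoblast also makes, led at 435 ± 37.6 (SD, n = 3), with Foxf1 at 66.8 ± 6.66 (SD, n = 3) and Bmp4 at 60.8 ± 2.30 (SD, n = 3). Vcam1 was the lowest member, at 0.729 ± 0.105 (SD, n = 3). Tbx4, a T-box gene of the allantois, had normalized counts of 519, 423 and 732, highest in embryo 3. Endothelial genes were at a median level of 9.08 ± 0.429 (SD, n = 3), led by Etv2, the factor that starts the endothelial and blood fate, at 62.6 ± 5.53 (SD, n = 3), and by Kdr, the VEGF receptor of angioblasts, at 35.7 ± 2.52 (SD, n = 3). Emcn, a gene of more mature endothelium, had 0, 0 and 1.86.

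In the blood list, the globin gene Hbb-bh1 had the highest length-scaled level, and the other embryonic globins were low. Lmo2, Tal1 and Gata1, transcriptional regulators of blood, had normalized counts of 1488, 1669 and 1699, of 2419, 2676 and 2700.5 and of 1272, 1371 and 1272. Hbb-bh1, the first beta-like globin of the yolk sac, had 1241, 1161 and 1481 and a level of 128 ± 17.2 (SD, n = 3). The levels of Lmo2, Tal1 and Gata1 were 45.2 ± 3.31 (SD, n = 3), 35.9 ± 2.24 (SD, n = 3) and 32.4 ± 1.31 (SD, n = 3). The other embryonic globins were far lower, with Hba-x at 43.6, 15.8 and 50.3 and Hbb-y at 12.5, 31.7 and 14.0. Embryo 1 was the lowest of the 3 in 9 of the 11 blood genes with a mean of at least 100, against 33.1% of all such genes. Adult globins, which maternal blood would bring, were at a mean under 100 for each of 4 genes, with Hbb-bs the highest at 66.5, 73.3 and 127. Adult globin genes come in near-identical pairs, and their counts are uncertain.

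In the extraembryonic ectoderm list, Rhox5, a homeobox gene of the X chromosome, stood at 1069 ± 62.5 (SD, n = 3), far above the list median of 30.8. Whether other tissues contributed to its level was not tested. Cdx2, which posterior embryonic tissue also makes, was at 161 ± 11.6 (SD, n = 3). Elf5, a factor of trophoblast stem cells, had normalized counts of 2857, 3152 and 3472 and Esrrb 1451, 1609 and 1695. Wnt7b, a chorion gene, had 2606, 2815 and 2768. Gcm1, which starts branching of the placenta, was low at 16.6, 19.8 and 27.9. Of the 12 members 11 passed a mean of 100.

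The ectoplacental cone list split. Plac1, the connexin gene Gjb5 and the imprinted factor gene Ascl2 were expressed, with Plac1 at 1433, 1371 and 1759.6 and Ascl2 at 1049, 865 and 1308, and all are made by more than 1 kind of trophoblast. Sct, the secretin gene, had 90.4, 78.2 and 127. Tpbpa and Tpbpb, defining markers of the cone and of the spongiotrophoblast it gives rise to, had no read in any embryo. Over the 3 libraries together a count of 0 allows up to 0.0344 reads per 1000000, from 3 fragments with both mates counted (6 reads), and this limit covers counting error only. Of 8 genes of trophoblast giant cells and placental cathepsins, 6 had no read, and Prl3d2 and Cts7 had at most 2 reads in any embryo. The Prl3d and Prl2c genes have near-identical copies, so their zeros are uncertain. The label names whole embryos with extraembryonic tissue, yet these defining markers were not detected at this depth; how the embryos were trimmed is not given in the sources used here.

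The defining markers of maternal decidua were at or near 0. The decidual prolactins Prl8a2 and Prl3c1 had 2 reads and none over the 3 libraries. Pgr, Des, Cryab and Igfbp1, which are not particular to decidua, had mean normalized counts of 327, 407, 147 and 274. Igfbp1, a secreted binder of insulin-like growth factors, was the highest in embryo 1, at 391, 228 and 205. Of 11 leukocyte genes none reached a mean of 100. Cd68, a lysosomal protein gene of macrophages, came closest at 90.4, 77.2 and 109. The pan-leukocyte gene Ptprc had 6.24, 0 and 0 and the macrophage receptor gene Csf1r 16.6, 1.98 and 7.45. Among 16 genes of organs that have not formed, 6 had no read and 15 had a mean under 10. The exception was Mbp, at 917, 1033 and 868, whose locus also makes golli transcripts outside myelin. These genes show the level at which a gene without a tissue of origin lay in these libraries.

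Neighbours in this order of tissues were often not separated. The median level of each embryo went from 32.0 to 49.0 for the ectoplacental cone list and from 40.9 to 45.7 for epiblast. Extraembryonic mesoderm (31.2 to 36.8) and extraembryonic ectoderm (30.4 to 31.1) stood next, with ranges that touched or nearly touched. Primitive streak, paraxial mesoderm and definitive endoderm came after them, with medians of 27.2, 24.2 and 20.5. Endothelium, blood, germ cells, node and cardiac mesoderm followed with medians of 9.08 to 5.94. Visceral endoderm, at 453 to 533, and parietal endoderm, at 71.0 to 75.2, lay apart from every other tissue list in each embryo. These 2 lists hold mostly genes of secreted proteins, receptors and basement membrane, whereas the epiblast and streak lists hold many transcription factor genes. The part of this difference in the order of tissues was not tested. Hnf4a, a transcription factor gene of the visceral list, had a level of 131 ± 3.08 (SD, n = 3). That was above the medians of the other tissue lists, but below Pou5f1 at 352 and T at 235.

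**Figure D2:**
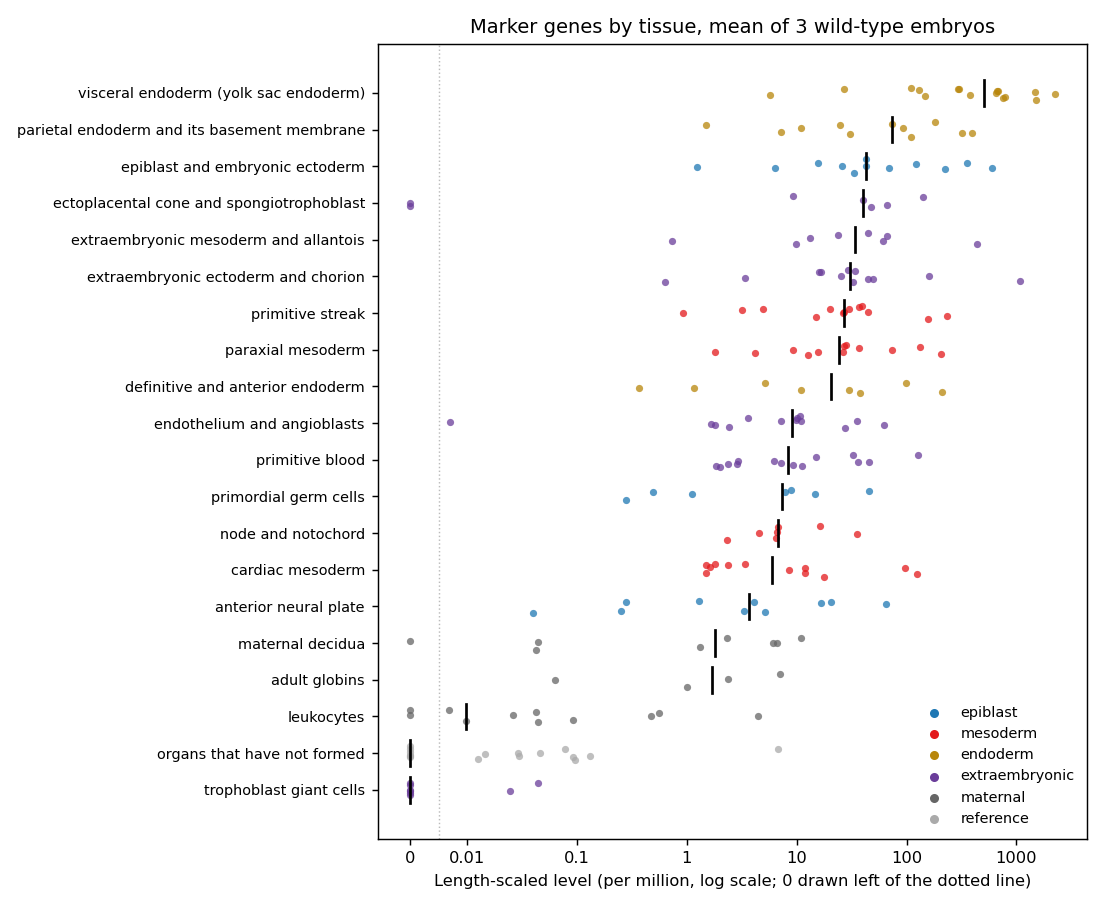
Length-scaled level (rescaled to a sum of 1000000 per embryo, log scale, mean of 3 wild-type embryos) of each marker gene, in rows by tissue and ordered by the median, which the black bar marks; colours give the compartment and genes with no read are drawn at 0 on the left. Visceral endoderm stands at the right, and trophoblast giant cell genes and genes of organs that have not formed lie at or near 0.

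Hox genes come on in sequence from the 3' end of each cluster as the body axis extends. The 20 genes of the list each had a read in every embryo, and 13 reached a mean of 100. Hoxb1 had normalized counts of 4417, 4171 and 4119, at a level of 110.3 ± 3.88 (SD, n = 3). Within the Hoxb cluster the level did not fall steadily with position. Hoxb2 was at 23.5 ± 1.44 (SD, n = 3), Hoxb3 at 5.01 ± 0.914 (SD, n = 3), Hoxb4 at 7.42 ± 1.51 (SD, n = 3) and Hoxb6 higher again at 15.3 ± 5.40 (SD, n = 3). Further towards the 5' ends of the clusters, Hoxb8 had 193, 159 and 256, Hoxb9 155, 170.3 and 295 and Hoxa10 127, 132 and 234. Hoxb13, at the 5' end of its cluster, had 4.16, 1.98 and 9.32, whereas Hoxa13 had 60.3, 77.2 and 61.5. In the Hoxd cluster Hoxd3 had a mean of 3.01 and Hoxd9 one of 274. The receptor gene Aplnr had 9178, 9633 and 9522, and its ligand genes Apln and Apela had 7859, 8599.5 and 7566 and 2004, 1902 and 1082. Apela, which acts in endoderm and heart formation in fish, was lowest in embryo 3.

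The 3 embryos were close to each other. Over the 12353 genes that reached a mean of 100, the median coefficient of variation was 5.51% and the median ratio of the highest to the lowest embryo was 1.11. No pair stood apart, with a median fold of 1.07, 1.06 and 1.07 between embryos 1 and 2, 1 and 3, and 2 and 3. The median coefficient of variation was 26.4% in the class from 10 to 100, 9.63% from 100 to 1000, 4.43% from 1000 to 10000 and 3.47% from 10000 to 100000. Counting error alone, with 2 reads counted per fragment, has an expected coefficient of 25.8%, 7.24%, 2.61% and 1.11% in the same classes. With 3 embryos, the median of observed coefficients lies below the expected one when counting error acts alone. The observed medians were above the expected coefficient in all of these classes, narrowly from 10 to 100 and most clearly above 10000. A biological coefficient of variation came from the dispersion trend that edgeR fitted to the reads, to which the widely spread genes also contribute. It was 27.2% for genes with 10 to 100 reads and 15.2% for 100 to 1000. For 1000 to 10000 reads it was 7.52%, and for genes over 10000 it was 6.78%. edgeR took each read as a count of its own, which is another counting model than that of the counting error above.

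**Figure D3:**
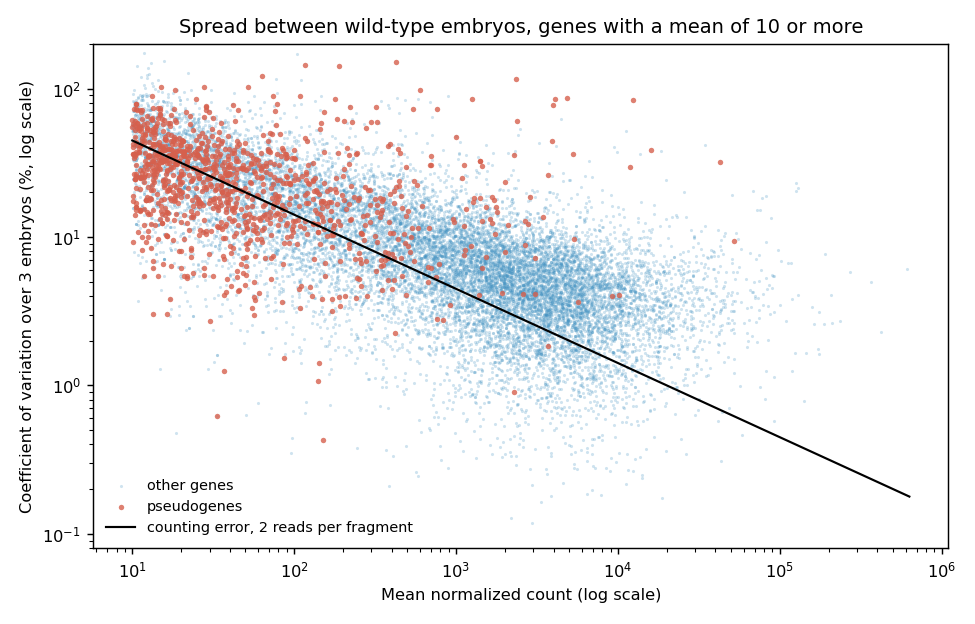
Coefficient of variation over the 3 wild-type embryos (%, log scale) against the mean normalized count (log scale) for each gene with a mean of at least 10; red points are pseudogenes, blue points other genes, and the line is the spread that counting error alone would give with 2 reads per fragment. Pseudogenes lie above the blue cloud at high counts.

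Of the 12353 genes, 599 (4.85%) had a highest embryo at least 1.5 times the lowest. The share was 4.04% of 11868 protein-coding genes, 16.1% of 161 long noncoding RNAs and 30.1% of 286 pseudogenes. Past a mean of 1000, 27 genes differed 2-fold or more, and 11 of them were pseudogenes, out of 59 pseudogenes at that level. Among genes with a symbol other than a gene model name, the widest ratios at that level belonged to processed copies of ribosomal protein genes. Rps2-ps13, on the X chromosome, had normalized counts of 8.31, 7548 and 6892, and Rpsa-ps10 had 19237, 481 and 17626. Rps26-ps1 had 5653, 424 and 5818 and Rps24-ps3 763, 785 and 5442. The parent genes, named after their values were seen, stood the other way round in these embryos. Rps2 had 99858, 72894 and 73356 and Rpsa 70757, 83122 and 61389. Rps26 had 52010.2, 61656 and 52789.8 and Rps24 54534, 58303 and 39926. Rps2, Rpsa and Rps26 were highest in the embryo where the copy was lowest, and Rps24 was lowest where its copy was highest. Whether reads of a parent were counted to its copy in some libraries was not tested. Rpl35a (12478, 5148 and 10774) and Rpl26 (8258, 7422 and 17896) were themselves among the protein-coding genes with the widest spread at that level.

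Among protein-coding genes outside the ribosome with a mean of at least 1000, Rbm6, an RNA-binding protein gene, spread the most, at 1689.7, 7272 and 4447. Itgb3bp, a centromere protein gene, had 1511, 1058 and 586 and Acp6, a lipid phosphatase gene, 1577, 2137 and 869. Gnpda1, which encodes a glucosamine-phosphate deaminase, was high in embryo 3 at 1692, 1754 and 4027, Atp6v0c, a subunit of the vacuolar proton pump, high in embryo 1 at 3745, 1697 and 1747, and Cd82, a tetraspanin gene, low in embryo 3 at 2489.9, 2589 and 1206. At the other end, Mfsd10 (2966, 2959 and 2963), Vps11 (3345, 3354 and 3355), Pxdn (18798, 18817 and 18861) and Bach1 (3841, 3846 and 3832) hardly differed. Their coefficients of variation, 0.118% to 0.180%, lay below the counting error of 1.02% to 2.58%, as did those of 1614 of the 7911 genes past a mean of 1000. Low values among so many genes do not single these genes out.

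Several gene lists leaned towards 1 embryo, Hox and ectoplacental cone genes the most among the lists of development. Over all genes with a mean of at least 100, embryos 1, 2 and 3 were the highest in 33.6%, 34.6% and 31.8% and the lowest in 33.1%, 32.5% and 34.3%. Of 13 Hox genes at that level, 12 were highest in embryo 3 and 10 lowest in embryo 2. Hoxb6 had normalized counts of 428, 367 and 691 and Hoxb9 155, 170.3 and 295. The mean of the Hox genes lay at -0.01, -0.28 and 0.30 in embryos 1, 2 and 3, on the log2(normalized count + 1) scale relative to the mean of the 3. Of the 13, 6 passed the ratio of 1.5, against 4.85% of all genes with a mean of at least 100. These 6 had means from 100 to 1000, where 11.7% of all genes passed it. For Hox genes of groups 5 to 13 with a mean of at least 10, embryo 3 was the highest in 10 of 11 and its median ratio to embryo 2 was 1.83. For groups 1 to 4 it was the highest in 6 of 7, and that ratio was 1.40.

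Embryo 3 was also the highest for 7 of 8 extraembryonic mesoderm genes, 10 of 11 endothelial genes and 4 of 4 ectoplacental cone genes at a mean of at least 100. Cdh5, the cadherin of endothelium, had normalized counts of 599, 643 and 840.2 and Gjb5 1536, 915 and 1574. Embryo 2 was the lowest for 6 of the 8 extraembryonic mesoderm genes and all 4 ectoplacental cone genes. Embryo 1 was the lowest for 9 of 11 endothelial genes, and the highest for 8 of 11 paraxial mesoderm genes. In the paraxial list, 4 of 11 genes passed the ratio of 1.5. The share was 4.85% of all genes with a mean of at least 100, and 11.7% of those from 100 to 1000. Meox1, a somite factor gene, had 1503, 554 and 927, and Hes7, a gene of the segmentation clock, 549.7, 222 and 376. Mesp2 was also highest in embryo 1, at 199.5, 110.9 and 93.2. Msgn1 went the other way at 1135, 1721 and 1137. It was 1 of 3 paraxial genes highest in embryo 2, with Dll3 and Foxc2. Primitive streak genes showed little order, with embryo means of 0.01, -0.02 and 0.01.

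Epiblast genes were highest in embryo 2 for 6 of 11 and lowest in embryo 3 for 6 of 11, at embryo means of 0.02, 0.04 and -0.05. Glycolysis genes were lowest in embryo 3 for 12 of 14, at 0.05, 0.05 and -0.10, and no member passed the ratio of 1.5. Few genes at such counts passed it, with 1.05% from 1000 to 10000, 0.758% from 10000 to 100000 and 3.57% at 100000 and over. Ribosomal protein genes were highest in embryo 1 for 44 of 81 and lowest in embryo 3 for 46 of 81. Mitochondrially encoded mRNAs were highest in embryo 3 in 6 of 6 genes. All RNAs of the mitochondrial genome together made up 0.789%, 0.844% and 1.12% of the counts, while its ribosomal RNAs made up 0.0364%, 0.0417% and 0.0381% and were highest in embryo 2. Hspa8, a constitutive chaperone gene, was also highest in embryo 3, at 109137, 113317 and 155897. Embryo 3 was also the deepest library, and Gm42418, an RNA annotated over a copy of ribosomal RNA, was low there at 39440.2, 45278 and 18152, as was Lars2 at 7903, 7915 and 4178. The part of depth and of these RNAs in the differences between embryos was not tested. The summed length-scaled levels of decidual and leukocyte genes were 27.2 ± 3.13 (SD, n = 3) and 5.68 ± 1.52 (SD, n = 3).

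**Figure D4:**
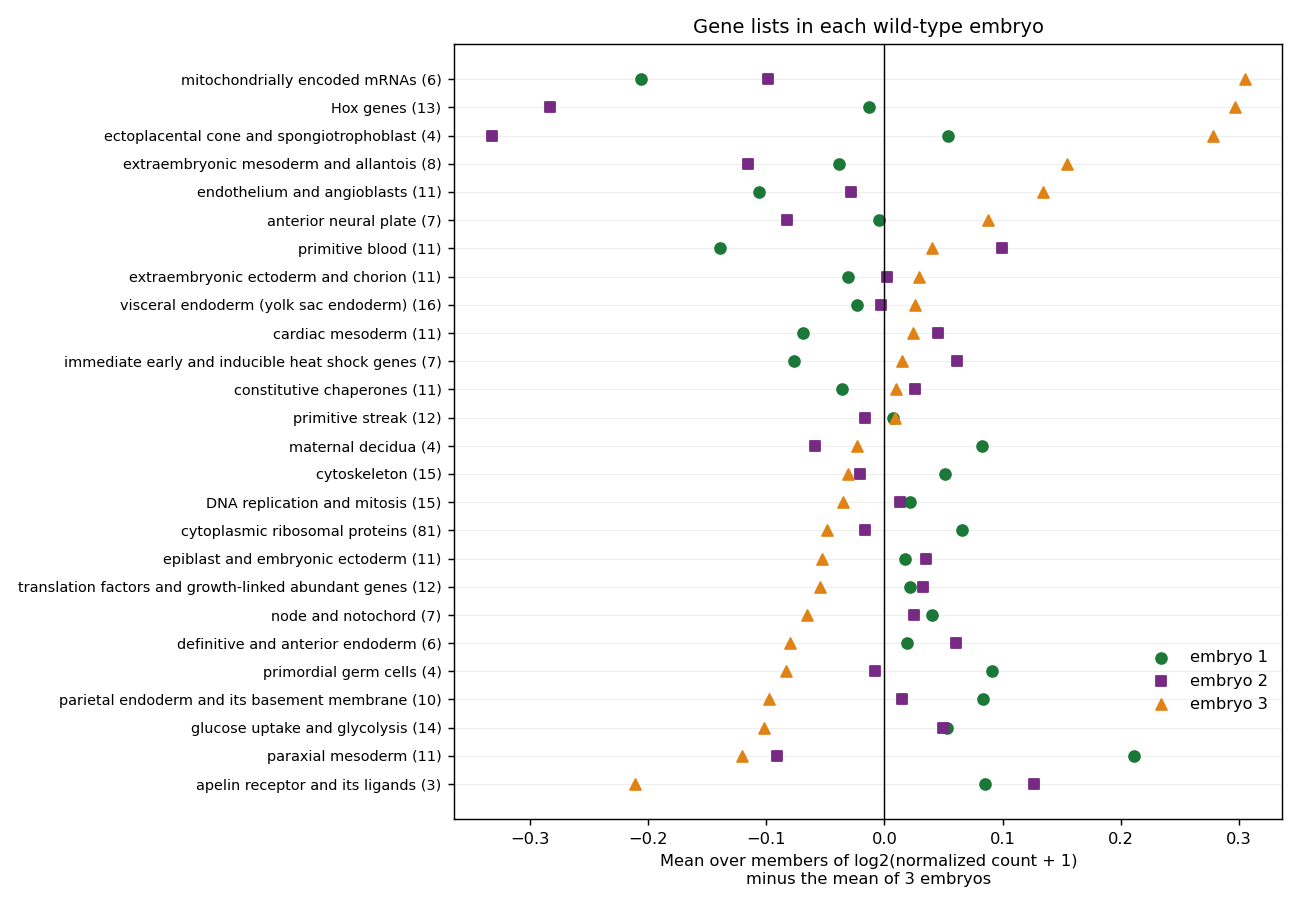
Mean over the members of each list of log2(normalized count + 1) minus the mean of the 3 wild-type embryos, for embryos 1 (circle), 2 (square) and 3 (triangle); the number of members with a mean of at least 100 is in brackets. Hox, ectoplacental cone and extraembryonic mesoderm genes lie high in embryo 3 and low in embryo 2, and the largest distances from 0 are those of ectoplacental cone (-0.33 in embryo 2), mitochondrially encoded mRNAs (0.31 in embryo 3) and Hox genes (0.30 in embryo 3).

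Promoters of abundant genes held more CG pairs than those of silent genes. In RefSeq promoters of GRCm38.p6, from 250 bases before to 50 bases after the start, the CpG ratio is the number of CG pairs over the number that the content of C and G would give. CG pairs are depleted in most of the mouse genome and kept in CpG islands. The median CpG ratio of 3487 promoters of protein-coding genes with no read was 0.144, and it was 0.275, 0.452, 0.654, 0.791 and 0.854 in the classes up to 10, 100, 1000, 10000 and 100000. It was 0.833 for the 27 promoters of genes at 100000 and over. A promoter was found for 16328 protein-coding genes, and genes may have several. The letters TATAAA, on either strand, occurred in 30.4% of promoters of genes with no read, 5.95% in the class from 1000 to 10000 and 12.0% of all 19942.

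Tissue lists differed in the same measure. Promoters of translation genes had a median CpG ratio of 0.952 (14 promoters of 9 genes), replication and mitosis genes 0.909 (14 of 13) and Hox genes 0.594 (12 of 11). Visceral endoderm promoters, whose genes were the most abundant of the tissue lists, had 0.344 (17 of 13), and blood promoters 0.266 (12 of 10). The adult globins, leukocyte genes and genes of unformed organs had 0.148, 0.188 and 0.157. The 150 bases before the start are shown for 4 genes, to set a gene of every tissue, an epiblast gene, a visceral endoderm gene and a silent gene side by side, with CG pairs in capitals.
Eef1a1, minus strand, chr9:78481725-78481874: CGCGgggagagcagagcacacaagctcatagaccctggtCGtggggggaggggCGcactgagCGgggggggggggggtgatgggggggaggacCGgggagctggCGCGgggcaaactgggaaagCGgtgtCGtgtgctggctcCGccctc
Dnmt3b, plus strand, chr2:153649299-153649448: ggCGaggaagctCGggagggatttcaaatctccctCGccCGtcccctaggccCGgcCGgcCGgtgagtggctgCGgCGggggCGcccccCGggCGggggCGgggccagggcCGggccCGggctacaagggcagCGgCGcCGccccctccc
Apoa1, plus strand, chr9:46228480-46228629: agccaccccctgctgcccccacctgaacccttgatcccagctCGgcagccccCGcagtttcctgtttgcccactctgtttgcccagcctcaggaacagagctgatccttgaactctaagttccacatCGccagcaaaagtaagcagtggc
Tpbpa, minus strand, chr13:60941937-60942086: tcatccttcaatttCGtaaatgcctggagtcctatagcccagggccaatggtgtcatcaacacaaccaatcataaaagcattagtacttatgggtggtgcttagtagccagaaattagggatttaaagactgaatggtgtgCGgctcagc
These stretches held 11, 18, 3 and 2 CG pairs. Apoa1, with 3, nevertheless reached a level of 2256, above that of Dnmt3b at 598.

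**Figure D5:**
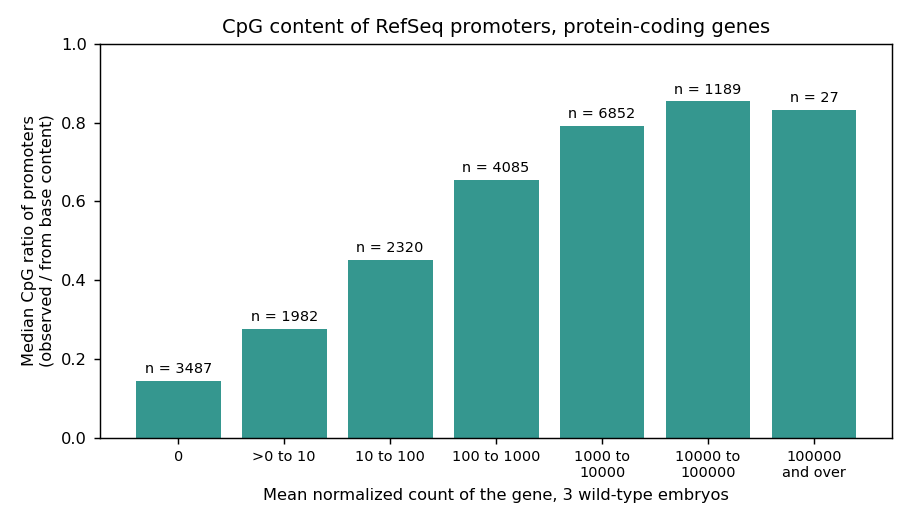
Median CpG ratio of RefSeq promoters of protein-coding genes (observed over that from base content, bars from 0) by class of mean normalized count in the 3 wild-type embryos, with the number of promoters above each bar. The ratio goes from 0.144 for genes with no read to 0.854 in the class from 10000 to 100000.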

How the data were processed

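Polyadenylated RNA of single embryos was made into TruSeq Stranded mRNA libraries, per the labels' protocols. Tools listed in the submitters' processing notes are kallisto, STAR, featureCounts, Picard and DESeq2, with mm10 as the build; what each was used for is not given in the sources used here. A few items are not reported here. The authors deposited a signal table of normalized counts, each the read number over a library's size factor. In the wild-type libraries 100% of values above 0 were whole multiples of 1 read (within 0.01), which gave reads per library; 76.9% to 77.8% of values of 1 to 20 reads were even, as when both mates are counted. A stray letter in 1 cell was left out. Lengths, types and coordinates came from GENCODE M21 (GRCm38), which matched 98.6% of identifiers.

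The 3 libraries differed from each other beyond sampling noise, at 15.6 to 19.4 for chi-square over its degrees of freedom. Depth was 55050556 to 61038109 reads, and intervals and floors cover counting error only. The members, the lists and the rule for named genes were chosen with earlier results of these data known. The rule took the 30 most abundant genes, the 10 highest protein-coding genes by length-scaled level, in each list the 4 highest members, the most variable member and members with no read, among genes with a mean of at least 1000 and a symbol other than a gene model name the 12 with the widest and 8 with the narrowest spread, and the apelin and sex genes. Other members named in the text, and the families of ribosomal protein and mitochondrially encoded genes, were chosen after values were seen. Alternatives were the longest transcript as length, scaling by total reads or by TMM in edgeR 4.0.16 (R 4.3.3), other minimum counts, added constants and leaving out each embryo. Plots used matplotlib 3.10.9 in Python 3.11.15. Embryos are replicates as labelled, and the spread covers these 3 embryos.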

Additional observations from a re-analysis of the deposited data

How the results depend on the processing

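No paired analysis was possible because a single group of embryos was described and no groups were compared. Of 44 alternatives, 34 stayed within 1.5 times a count or within 1 SD of a value and 10 did not; no direction reversed. The share of counts in the first 100 genes, 17.9%, was 17.69% among protein-coding genes and 25.22% on the length-scaled level, and 17.84% to 18.03% when 1 embryo was left out. The median level of visceral endoderm genes was 426.5 with the longest transcript as the length; visceral endoderm, parietal endoderm and epiblast kept ranks 1 to 3. The number of genes with a highest embryo at least 1.5 times the lowest was 3153 for a mean of at least 10 and 80 for at least 1000. It was 147 for a 2-fold ratio, and 291 to 316 when 1 embryo was left out, as a range over 2 embryos is narrower than over 3: 316, 291 and 298 without embryo 1, 2 and 3. With a mean of at least 1000, 2 Hox genes were highest in embryo 3, of 3 that remain. Total reads or TMM shifted the median gene by at most 0.01 on the log2 scale and left the counts of Hox, epiblast and glycolysis genes by highest or lowest embryo as they were. No test between groups was run on the recovered reads. Depth limits genes under a mean of 100. From 10 to 100 the expected counting error was 25.8%, against a median spread of 26.4%.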

Other observations

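The 4 genes given first were named after their values were seen, so their order by embryo is a description. Txnip, an inhibitor of glucose uptake, had normalized counts of 848, 1449 and 1773 in embryos 1, 2 and 3, and its relative Arrdc4 had 605, 1248 and 1290.2. Embryo 1 was the lowest for both. Frzb, a secreted Wnt inhibitor, was high in embryo 3 at 2381, 2510.5 and 4851, and Lefty2, a Nodal inhibitor of nascent mesoderm, was high in embryo 2 at 170.4, 370.2 and 173.

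The noncoding RNAs that follow were named after their values were seen. Rian and Meg3, maternally expressed RNAs of 1 imprinted domain, had normalized counts of 11135, 10836 and 10925 and of 1988, 2446 and 2565, and Tug1 had 6771, 7885 and 6984. Gm26917, like Gm42418, was lowest in embryo 3, at 2356, 3143 and 1402.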
